A study of Homo sapiens with 3 samples.

Results

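The miRNAs described here are both arms of the neighbouring precursors miR-143 and miR-145, and both arms of miR-199a, miR-199b and miR-214. The 10 mature miRNAs were chosen by name, as known markers of mesenchymal and stromal cells, from 2588 mature miRNAs that the deposited tables list. The tables hold them in 12 rows, since hsa-miR-199a-5p and hsa-miR-199a-3p are each listed at 2 loci. Small RNA was sequenced from parental, untreated cells of 3 human cancer-derived lines: C643 from an anaplastic thyroid carcinoma, ES-2 from an ovarian cancer and Huh-7 from a hepatocellular carcinoma. The study concerned RNA decoys of miR-21, and these libraries give the miRNA levels of cells that received no decoy. Cells were grown with 10% serum and harvested 48 h after seeding, and each library came from a culture of a single line rather than from a tumor.

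Each line was represented by 1 library, so no difference between lines has a replicate check and all intervals cover counting error only. The C643 library held 8183100 miRNA reads, the Huh-7 library 2173587 and the ES-2 library 1663181. Levels are given as reads per 1000000 miRNA reads (RPM) of the same library, which no factor between libraries can alter. A miRNA without a read could still have a level of up to 0.367 RPM in C643, 1.38 in Huh-7 and 1.80 in ES-2, which corresponds to 3 reads. Mature miRNAs are covered whole by single reads, so levels were not divided by length.

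A miRNA precursor folds into a hairpin, and each side of it can yield a mature product, named 5p or 3p. The loaded product recognizes its targets mainly through the seed, bases 2 to 8. miR-143 and miR-145 are abundant in smooth muscle cells and fibroblasts, where they favour a contractile, differentiated state, and their levels are often low in carcinomas compared with the normal tissue. miR-199a and miR-214 are made from the non-coding RNA DNM3OS in mesenchymal cells, and miR-199 and miR-214 are known from fibrosis, skeletal development and vascular biology.

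The mature sequences are shown to make clear which members can be told apart by their reads and which share a target specificity. They are written 5′ to 3′ from RefSeq annotation of GRCh38.p14, which holds 9 of the 10 members under their names, all but hsa-miR-199b-5p. Capitals mark the seed.
hsa-miR-143-5p: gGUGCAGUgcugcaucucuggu
hsa-miR-143-3p: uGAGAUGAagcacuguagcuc
hsa-miR-145-5p: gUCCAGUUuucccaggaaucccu
hsa-miR-145-3p: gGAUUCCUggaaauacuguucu
hsa-miR-199a-5p: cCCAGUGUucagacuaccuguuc
hsa-miR-199a-3p: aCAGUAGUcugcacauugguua
hsa-miR-199b-3p: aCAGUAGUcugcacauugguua
hsa-miR-214-5p: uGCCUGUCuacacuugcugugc
hsa-miR-214-3p: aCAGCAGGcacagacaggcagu

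The 9 entries contain 8 distinct sequences and 8 distinct seeds, because hsa-miR-199a-3p and hsa-miR-199b-3p are the same molecule. Their reads cannot be told apart, and they are summed below as miR-199-3p unless a listed name is given.

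MIR143 lies at chr5:149428918-149429023 on the plus strand (GRCh38), where it overlaps an exon of CARMN, a long non-coding RNA. MIR145 follows 1622 bases downstream at chr5:149430646-149430733, in an intron of a CARMN transcript. MIR199A2 at chr1:172144535-172144644 and MIR214 at chr1:172138798-172138907 lie 5627 bases apart on the minus strand, in exons of DNM3OS transcripts and opposite an intron of the dynamin gene DNM3. The second miR-199a precursor, MIR199A1, lies at chr19:10817426-10817496 opposite an intron of DNM2. MIR199B lies at chr9:128244721-128244830 opposite an intron of DNM1. Each of the miR-199 precursors is thus antisense to a dynamin gene. The hairpins of the 3 miR-199 precursors are shown because the same 3p arm, the rightmost capitals, stands in each of them. Capitals mark the mature miRNAs that the RefSeq table lists for the precursor.
MIR199A1: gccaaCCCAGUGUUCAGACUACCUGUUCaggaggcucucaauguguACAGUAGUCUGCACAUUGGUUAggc
MIR199A2: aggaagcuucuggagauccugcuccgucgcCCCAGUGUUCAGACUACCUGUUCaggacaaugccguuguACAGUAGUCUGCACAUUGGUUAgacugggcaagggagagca
MIR199B: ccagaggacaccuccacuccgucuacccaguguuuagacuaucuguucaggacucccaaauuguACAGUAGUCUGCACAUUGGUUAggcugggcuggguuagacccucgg

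The 2 groups of members had different patterns over the lines. The miR-143 and miR-145 group was highest in C643, lower in Huh-7 and nearly without reads in ES-2. The miR-199 and miR-214 group was high in C643 and ES-2 and low in Huh-7. C643 was the library in which both groups were high. Of the 10 members, 9 had a read in C643, 8 in Huh-7 and 6 in ES-2, with miR-199-3p counted under both names. Of all 2588 miRNAs, 649, 858 and 608 had a read in these libraries, which differ in depth. At least 10 RPM was reached by 7 members in C643, by 4 in ES-2 and by 4 in Huh-7, with both names of miR-199-3p counted. The number of all miRNAs at this level is not given here, so these counts are a description. In a culture lysed as a whole, a lower level in every cell and a smaller number of cells with the miRNA cannot be told apart.

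**Figure D1:**
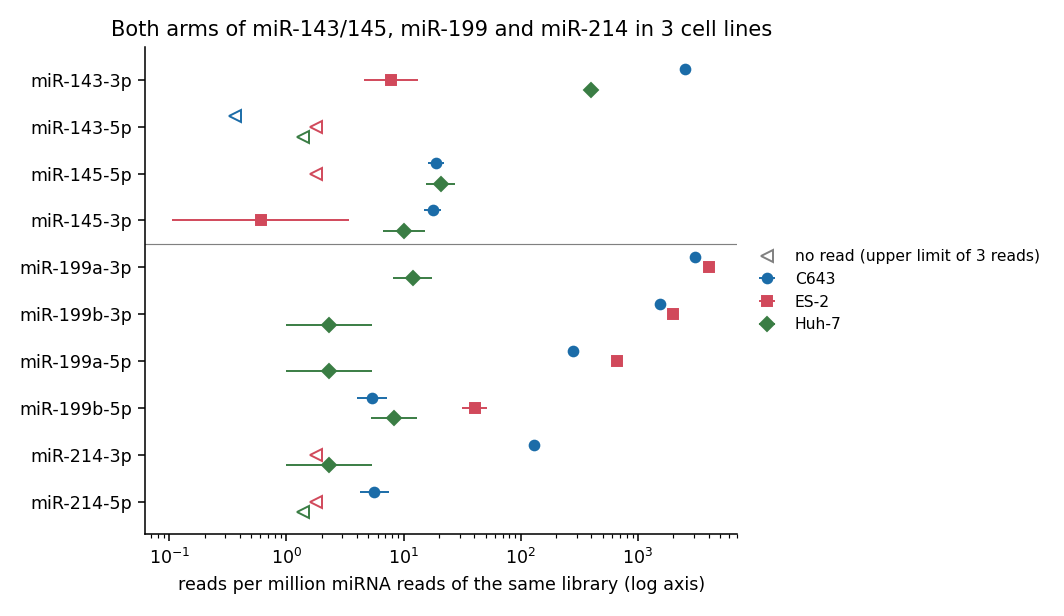
The horizontal log axis gives RPM in the same library for each of the 10 members, with 1 point per library and bars for the Wilson 95% counting interval. Open triangles stand at the upper limit of 3 reads for members without a read. The miR-143 and miR-145 members with reads are lowest in ES-2, whereas the miR-199 members are far to the right in C643 and ES-2, apart from miR-199b-5p in C643.

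Summed over both arms, miR-143 and miR-145 held 0.256% of miRNA reads in C643 (Wilson 95% interval 0.253 to 0.260) and 0.000842% in ES-2 (0.000501 to 0.00141), against 0.0429% in Huh-7 (0.0403 to 0.0458). The intervals did not overlap between any of the lines. The group was 305-fold higher in C643 than in ES-2 (95% interval 182 to 557), 5.97-fold higher in C643 than in Huh-7 (5.60 to 6.39) and 51.0-fold higher in Huh-7 than in ES-2 (30.2 to 93.6).

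Nearly all of this came from hsa-miR-143-3p. C643 had 20687 reads of it, ES-2 13 and Huh-7 866, or 2528, 7.82 and 398 RPM. By level it ranked 42 of the 649 miRNAs with a read in C643, 111 of 858 in Huh-7 and 296 of 608 in ES-2. Its share of the reads of the group was 98.6% in C643 and 92.8% in Huh-7.

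hsa-miR-145-5p, the arm of miR-145 usually taken as the functional strand, had 155 reads in C643 and 45 in Huh-7, and none in ES-2. These counts corresponded to 18.9 RPM in C643 and 20.7 in Huh-7. By share, Huh-7 was 1.09-fold above C643 (95% interval 0.766 to 1.53), so the difference lay within counting error, and it turned in favour of C643 both on the deposited scale and with the median ratio set to 1. Both lines exceeded ES-2, C643 at least 10.5-fold and Huh-7 at least 11.5-fold, as lower bounds against 3 reads. hsa-miR-145-3p, the opposite arm, had 17.7 RPM in C643, 0.601 in ES-2 (1 read) and 10.1 in Huh-7 (22 reads). C643 was 1.75-fold above Huh-7 (1.11 to 2.88) and 29.5-fold above ES-2, with a wide interval of 5.21 to 1172 around that single read.

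miR-143 and miR-145 therefore did not keep a fixed ratio, although they lie side by side in CARMN. Between C643 and Huh-7, miR-143-3p differed 6.35-fold (95% interval 5.93 to 6.80), while miR-145-5p did not differ beyond counting error. Within the libraries, miR-143-3p had 133 times the reads of miR-145-5p in C643 (114 to 157) and 19.2 times in Huh-7 (14.3 to 26.6). In ES-2 the ratio was at least 4.33.

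With both arms summed, miR-143 exceeded miR-145 69.0-fold in C643 and 12.9-fold in Huh-7. For comparison, this fold was computed for all pairs of precursors that lie within 10000 bases on 1 strand, have both arms listed at single loci and hold at least 100 reads together. The median fold was 8.29 over 93 pairs in C643 and 2.86 over 49 pairs in Huh-7. MIR143 and MIR145 stood at rank 10 from the largest fold in Huh-7. A precursor without a read was set to 3 reads, so some folds are lower bounds, and for this reason no rank is given for C643. Pairs of 1 cluster share precursors and are not independent.

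hsa-miR-143-5p was the member without a read in any library. Against it, hsa-miR-143-3p was at least 6896-fold higher in C643 and at least 289-fold higher in Huh-7. A missing arm was not particular to miR-143. Of 87 precursors with single-locus arms and 1000 or more reads in C643, 12 had 1 arm at 0, and the median of the leading over the other arm was 42.2. With arms at 0 set to 3 reads, miR-143 stood at rank 4 of the 87 from the largest lead. That rank rests on lower bounds.

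Summed over both arms, miR-199a, miR-199b and miR-214 held 0.504% of reads in C643 (Wilson 95% interval 0.499 to 0.509) and 0.672% in ES-2 (0.660 to 0.685), against 0.00271% in Huh-7 (0.00210 to 0.00350). ES-2 exceeded C643 1.33-fold (95% interval 1.31 to 1.36), and Huh-7 was exceeded 186-fold by C643 (144 to 244) and 248-fold by ES-2 (192 to 325). The order of C643 and Huh-7 was thus the same for both groups of members, whereas ES-2 stood lowest for miR-143 and miR-145 and highest for miR-199 and miR-214. Within the libraries, miR-199 and miR-214 had 1.96 times the reads of miR-143 and miR-145 in C643 and 798 times in ES-2 (476 to 1461), against 0.0632 times in Huh-7 (0.0478 to 0.0823).

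miR-199-3p was the most abundant molecule of the group. C643 had 37780 reads of it, ES-2 10015 and Huh-7 31, or 4617, 6022 and 14.3 RPM. C643 and ES-2 differed 1.30-fold, and both were over Huh-7, by 324-fold (95% interval 228 to 477) and 422-fold (297 to 622). Under the listed names, hsa-miR-199a-3p had 3085, 4039 and 12.0 RPM in C643, ES-2 and Huh-7, and hsa-miR-199b-3p had 1532, 1982 and 2.30.

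The listed a form is the sum of 2 rows and the b form is 1 row. In C643 the row on chromosome 1 held 33.6% of miR-199-3p reads, the row on chromosome 19 33.2% and the miR-199b row on chromosome 9 33.2%. In ES-2 the rows held 33.3%, 33.8% and 32.9%, and in Huh-7 they held 14, 12 and 5 of 31 reads. In C643 and ES-2 the rows of these identical sequences were thus nearly equal, and they say nothing about which of the 3 precursors was expressed. The same held for hsa-miR-199a-5p, whose rows on chromosomes 1 and 19 held 49.9% and 50.1% in C643 and 50.5% and 49.5% in ES-2.

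The 5p arm has different names and sequences for the a and b forms. hsa-miR-199a-5p was read 2303 times in C643, 1096 times in ES-2 and 5 times in Huh-7. These were 281, 659 and 2.30 RPM, so that ES-2 exceeded C643 2.34-fold (95% interval 2.18 to 2.52). hsa-miR-199b-5p was read 44 times in C643, 67 times in ES-2 and 18 times in Huh-7, or 5.38, 40.3 and 8.28 RPM. ES-2 exceeded C643 7.49-fold (5.05 to 11.2) and Huh-7 4.86-fold (2.86 to 8.70). Huh-7 stood 1.54-fold above C643 with an interval of 0.838 to 2.72, so this difference lay within counting error, and its direction turned on the deposited scale.

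The b form therefore made up a different part of miR-199-5p in each line. It was 1.87% in C643 (Wilson 95% interval 1.40 to 2.51) and 5.76% in ES-2 (4.56 to 7.25), compared with 78.3% in Huh-7 (58.1 to 90.3). The 3 intervals did not overlap, and in Huh-7 the b form outnumbered the a form. The value in Huh-7 rested on 23 reads. ES-2 and Huh-7 share a deposited table, so the few reads of Huh-7 were set against the counts in ES-2. They came to 0.456% of the ES-2 reads for miR-199a-5p and 26.9% for miR-199b-5p. For scale, the liver miRNA miR-122-5p had 6 reads in ES-2, 0.00208% of its 288469 reads in Huh-7. Whether reads were exchanged between libraries was not tested.

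miR-214, the neighbour of miR-199a-2 in DNM3OS, was above 10 RPM in C643 and in no other library. There hsa-miR-214-3p had 1050 reads (128 RPM, rank 140) and hsa-miR-214-5p 46 reads (5.62 RPM). In ES-2 both arms were without a read. In Huh-7 hsa-miR-214-3p had 5 reads (2.30 RPM) and hsa-miR-214-5p none. C643 exceeded ES-2 at least 71.1-fold for miR-214-3p, and Huh-7 55.8-fold (95% interval 23.8 to 172).

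ES-2 thus combined the highest level of miR-199a-5p with no detectable miR-214. Set against miR-199a-5p in the same library, miR-214-3p stood at 0.456 in C643 (95% interval 0.423 to 0.491) and at no more than 0.00274 in ES-2, the limit that 3 reads allow. In Huh-7 both had 5 reads. Since the miR-199a-5p of MIR199A1 and of MIR199A2 is identical, the part of it that came from the DNM3OS locus cannot be told apart from the part from chromosome 19.

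**Figure D2:**
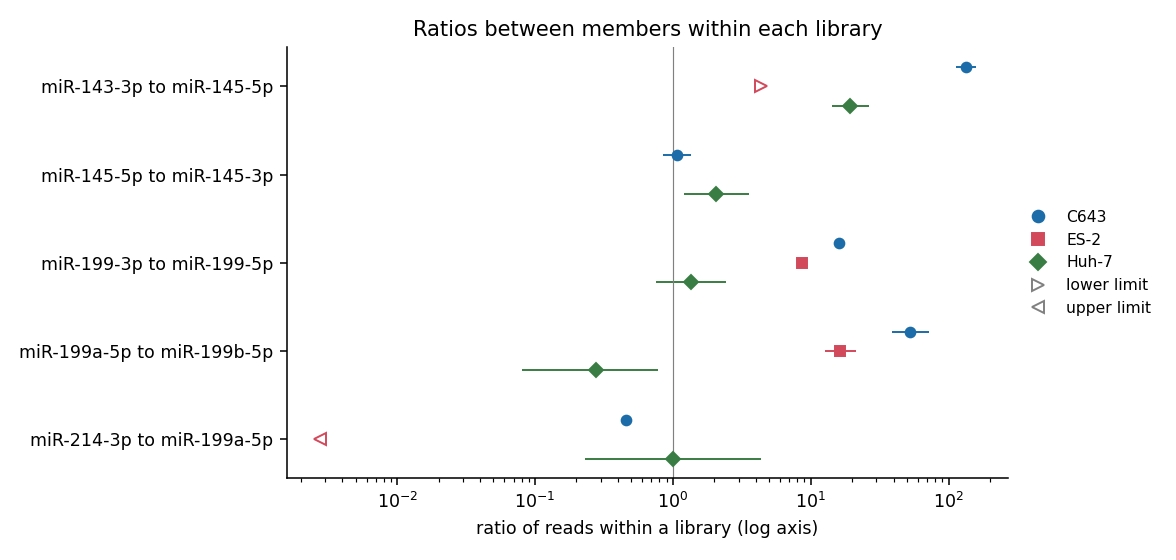
The horizontal log axis gives the ratio of reads between members of 1 library, with bars for the exact 95% counting interval and open triangles for limits where a member had no read. miR-143-3p exceeded miR-145-5p by 133 in C643 and 19.2 in Huh-7, miR-199a-5p exceeded miR-199b-5p in C643 and ES-2 but not in Huh-7, and miR-214-3p against miR-199a-5p had an upper limit of 0.00274 in ES-2.

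The balance of the arms differed between precursors and between lines. For miR-199 the 3p arm exceeded the 5p arm 16.1-fold in C643 (95% interval 15.4 to 16.8) and 8.61-fold in ES-2 (8.10 to 9.16), against 1.35-fold in Huh-7 (0.761 to 2.42). C643 and ES-2 differed beyond counting error, and in Huh-7 the interval included 1 and the ratio turned to 0.905 when 1 locus per miRNA was counted. For miR-214 the 3p arm exceeded the 5p arm 22.8-fold in C643 (17.0 to 31.4), at rank 51 of the 87 precursors. The arms of miR-145 did not differ beyond counting error in C643, with a 5p to 3p ratio of 1.07 (0.847 to 1.35), while in Huh-7 the 5p arm led 2.05-fold (1.20 to 3.58).

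The lines were then compared by a fold rule over all miRNAs, as a background for the members. A difference of at least 4-fold was called on the log2(RPM + 1) scale, on which low miRNAs show too small a fold, for miRNAs at 10 RPM or more in 1 of the 2 libraries. Passing this filter through the library in which a member is high favours a call, so the counts are a description. Between ES-2 and Huh-7, 7 of the 10 members passed the filter. Called higher in ES-2 were 4 members, the listed miR-199 arms, where 14.9% of 437 miRNAs were called. Here and below, counts of members hold the identical miR-199-3p under both of its listed names. Called higher in Huh-7 were 3, miR-143-3p and both arms of miR-145, where 41.4% of all were called.

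Between C643 and ES-2, 8 members passed. Higher in C643 were miR-143-3p, both arms of miR-145 and miR-214-3p, against 19.5% of 348 miRNAs. Higher in ES-2 was miR-199b-5p, against 9.48%. Between C643 and Huh-7, 7 members passed, and the 5 called were higher in C643: miR-143-3p, both listed miR-199-3p names, miR-199a-5p and miR-214-3p. Of all 442 miRNAs, 17.4% were called higher in C643 and 35.5% in Huh-7, where no member was called. The median log2 difference of the members that passed was 2.15 for ES-2 over Huh-7, beside -1.65 for all 437 miRNAs. It was 1.59 for C643 over ES-2, beside 0.39 for all 348, and 5.29 for C643 over Huh-7, beside -1.04 for all 442. Like the counts, these medians include members that passed only through the library in which they were high, and miR-199-3p under both names. They also pool 2 groups that differ. For miR-143 and miR-145 alone the medians were -4.44 for ES-2 over Huh-7, 4.32 for C643 over ES-2 and 0.75 for C643 over Huh-7. For miR-199 and miR-214 alone they were 7.96, -0.39 and 7.16 in these pairs.

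These counts depend on the scale. By share, the median log2 ratio of miRNAs at 10 RPM or more in both libraries was -1.01 for ES-2 over Huh-7, 0.23 for C643 over ES-2 and -0.51 for C643 over Huh-7. Of the calls between ES-2 and Huh-7, 26.4% were higher in ES-2 by share, 41.3% on the deposited scale and 44.8% after the median ratio was set to 1. Between C643 and Huh-7, 32.9% were higher in C643 by share, 47.4% on the deposited scale and 43.1% after the median ratio was set to 1. Deposited values of C643 lie in a table of their own, which may have been normalized separately. The members called kept their direction on all 3 scales. Of the 3 called higher in Huh-7 than in ES-2 by share, 2 were still called on the deposited scale and 2 after the median ratio was set to 1. A read test (exact binomial, adjusted after Benjamini-Hochberg, limit 0.05) called 92.7% of miRNAs between ES-2 and Huh-7, 88.2% between C643 and ES-2 and 91.4% between C643 and Huh-7. It called 7, 8 and 6 of the 10 members in these pairs. It compares libraries and not cell lines, and at these depths it separates few miRNAs from the rest.

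**Figure D3:**
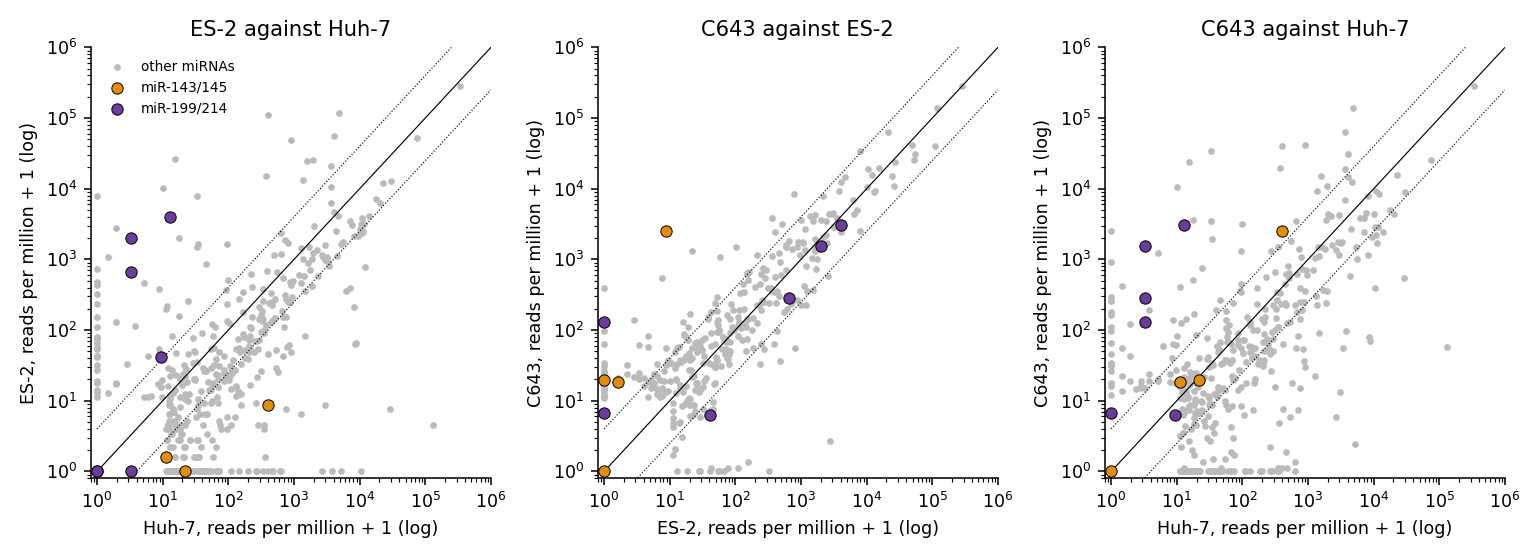
Each panel plots RPM + 1 of 1 library against another on log axes, for miRNAs at 10 RPM or more in either (grey) and for the 10 members (colour), with the line of equality and dotted lines at 4-fold. Against Huh-7, the miR-199a members and miR-199b-3p lie above the upper dotted line in both panels, and miR-143-3p lies far above it for C643 against ES-2.

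Other miRNAs linked to mesenchymal cells did not follow a single pattern. The list of 13 held 5.41% of reads in C643 and 12.8% in ES-2, against 0.642% in Huh-7. Between ES-2 and Huh-7, 5 of the 13 passed the filter, with 3 called higher in ES-2, where 14.9% of all miRNAs were called, and none in Huh-7, where 41.4% were. The median log2 difference of the 5 was 2.39, beside -1.65 for the 437 miRNAs tested. Those called were miR-100-5p and miR-125b-5p, which are made from clusters that also hold a let-7 precursor, and miR-218-5p of the SLIT host genes. miR-100-5p alone had 40697 RPM in C643 and 111540 in ES-2, compared with 399 in Huh-7, so it made up most of the sum in C643 and ES-2. miR-218-5p had 3165, 513 and 97.1 RPM. miR-10b-5p, from the HOXD cluster, ran the other way, with 583 RPM in C643 and 2531 in ES-2, against 4366 in Huh-7. miR-152-3p had 397, 345 and 163 RPM and was called in no pair. Of the 6 that passed between C643 and Huh-7, 4 were called higher in C643 and miR-10b-5p was called higher in Huh-7, with a median log2 difference of 2.61, beside -1.04 for all miRNAs. Of all miRNAs in this pair, 17.4% were called for C643 and 35.5% for Huh-7. Of the 6 that passed between C643 and ES-2, 2 were called for C643 (miR-218-5p and miR-409-3p) and 1 for ES-2 (miR-10b-5p), and the median was -0.16, beside 0.39 for all miRNAs. Of all miRNAs in this pair, 19.5% were called for C643 and 9.48% for ES-2.

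The imprinted DLK1-DIO3 cluster, a further source of miRNAs in fibroblasts, gave 8 of the 13. miR-409-3p was the one above 10 RPM in any library, with 15.0 RPM in C643 and 0 in ES-2, against 1.84 in Huh-7. The ES-2 library, high in miR-199, held 1 read for these 8 miRNAs, of miR-382-5p.

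Epithelial markers, in sum, were highest in Huh-7. The list, made of the miR-200 family with miR-205-5p, miR-375 and miR-203a-3p, held 0.00132% of reads in C643 and 0.00595% in ES-2, compared with 0.417% in Huh-7. miR-200b-3p, its most abundant miRNA in C643 and Huh-7, had 12.5 RPM in C643 and 7.82 in ES-2, against 3017 in Huh-7. Between ES-2 and Huh-7, as between C643 and Huh-7, 5 of the 8 passed the filter and were called higher in Huh-7, where 41.4% and 35.5% of all miRNAs were called in the respective pair. In C643, 5 of the 8 markers were at 0, and in ES-2 and Huh-7 2 were at 0, miR-205-5p in each. The order of this list was thus the reverse of that of miR-199 and miR-214 for Huh-7 against the other lines, but Huh-7 also held miR-143-3p at 398 RPM.

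Of the markers of other cell types, miR-122-5p of hepatocytes stood at 57.2 RPM in C643 and 3.61 in ES-2, against 132716 in Huh-7. The 4 liver miRNAs together held 15.5% of reads in Huh-7, beside 0.0207% in C643 and 0.0132% in ES-2. The liver markers were thus highest in the line labelled as liver-derived, and no marker list for thyroid or ovary was used. The muscle list, with miR-1-3p and the miR-133 family, held 10 reads in C643 and 14 in ES-2, compared with 36 in Huh-7. Of the 8 miRNAs of this list, 7 were at 0 in C643, the library with the highest miR-143 level. No list for smooth muscle alone was used, and a muscle source was not tested. The list of 8 blood and endothelial miRNAs held 0.00423%, 0.0492% and 0.216% of reads in C643, ES-2 and Huh-7, and was led in Huh-7 by miR-486-5p with 1273 RPM. In ES-2 it was led by miR-142-3p of blood cells, with 542 reads there and 0 in the other libraries. miR-142-5p had 255 reads in ES-2, 3 in C643 and 0 in Huh-7. miR-126-3p of the same list had 1619 reads in Huh-7, 117 in C643 and 11 in ES-2. miR-126-5p had 310, 52 and 0 reads in these libraries. miR-223-3p and miR-451a were at 0 in C643, and each had at most 1 read in either of the other libraries. The part of other cell types in the members' levels was not tested.

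**Figure D4:**
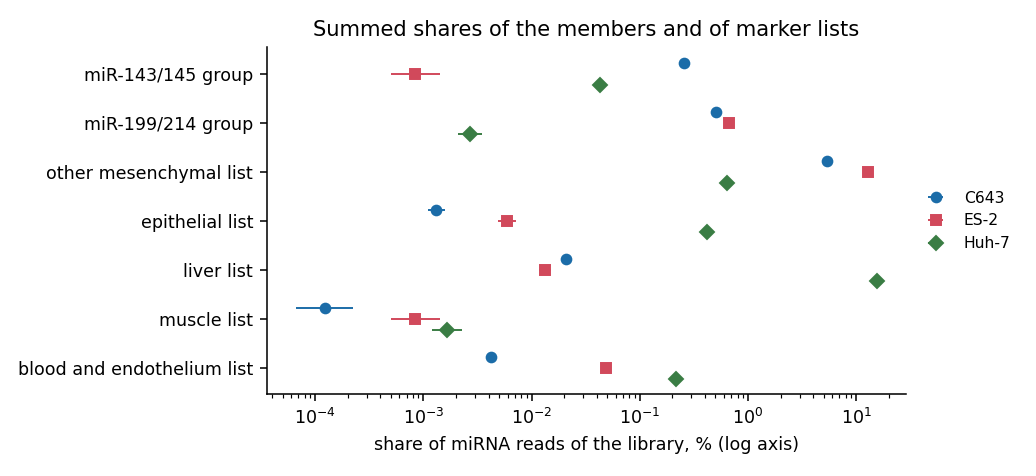
The horizontal log axis gives the summed share of each list in percent of the miRNA reads of the library, with bars for the Wilson 95% interval. The miR-199 and miR-214 group and the other mesenchymal list are lowest in Huh-7, the miR-143 and miR-145 group is lowest in ES-2, and the epithelial and liver lists are highest in Huh-7.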

How the data were processed

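Small RNA libraries were made by the submitters from 50 ng of total RNA with the NEXTflex Small RNA kit v3. Per the labels, the processing notes name cutadapt 1.14, Bowtie2 2.3.3, SAMtools 1.5, featureCounts 1.5.3 and edgeR 3.18.1 with hg38. How reads with several matching loci were counted is not given in the sources used here.

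The authors deposited a signal in which the reads of each locus are multiplied by 1 factor per library. They carry the name CPM, but the columns do not sum to 1000000. Within each column 100% of the nonzero values were whole multiples of 1 step (tolerance 0.01 reads), so reads were recovered and added up where a mature miRNA has several loci. Shares refer to the library's own total, with Wilson intervals. Ratios have exact conditional binomial intervals, all at 95%. Reads may be PCR copies of a molecule, so the intervals and the 3-read limit cover no more than counting error. Against 0 reads a ratio was computed with 3 reads and is a bound. The fold rule used a pseudocount of 1, and the alternatives are listed in the closing section. Scripts were tested on simulated data. Python 3.11.15, scipy 1.17.1 and statsmodels 0.14.6 were used.

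The members and lists were chosen with earlier results of these data known. Named were the 10 members, the 3 miRNAs nearest in profile to the leading member of each group, miRNAs annotated within 10000 bases or in a host gene, and the members of the lists. The comparison over neighbouring precursors and over arms, and its read minimums, were chosen after the data had been seen. Positions and host genes were taken from RefSeq and GENCODE 29 on GRCh38, where both gave the same position for each precursor printed.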

Additional observations from a re-analysis of the deposited data

How the results depend on the processing

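No paired analysis was possible because the columns carry no replicate numbers and every line is a single library. Of the recomputed group shares, arm ratios and counts, 98 stayed within counting error or within 1.5 times of a count and 56 moved. For arm ratios the alternative was 1 locus per miRNA. It cannot change those of miR-143, miR-145 and miR-214, whose arms have single loci and which are counted among the 98. The miR-199 ratios in C643 and ES-2, whose intervals excluded 1, kept their direction. Of the recomputed shares of single members, 51 stayed and 45 moved. Members without a read stay at 0 in any of these settings and are counted among the 51, so these numbers do not measure stability. In the order C643, ES-2, Huh-7, the miR-199 and miR-214 share was 0.483%, 0.776% and 0.00166% with a denominator of 1000000, and 0.706%, 0.936% and 0.00407% without miR-21-5p. It was 0.404% and 0.514% in C643 and ES-2 with 1 locus per miRNA, and 0.475%, 0.602% and 0.00166% with leading arms only. The miR-143 and miR-145 share in C643 and Huh-7 was 0.246% and 0.0263%, 0.359% and 0.0643%, and 0.308% and 0.0471% in the first 3 settings. With 1 locus the miR-199 arm ratio was 21.1 in C643 and 10.8 in ES-2, while the Huh-7 ratio turned from 1.35 to 0.905, within counting error. The alternatives for shares change the reads counted or the total they are divided by, and of the arm ratios only that of miR-199 could change.

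Of the members, a pseudocount of 10 or a filter at 100 left 1 higher in Huh-7 than in ES-2, 2 higher in C643 than in ES-2 and 0 higher in ES-2 than in C643. Higher in ES-2 than in C643 were 2 at 2-fold, 0 at 8-fold and 4 by the read test. No other count of members moved by over 1.5 times.

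For all miRNAs, the counts that moved were as follows. Between ES-2 and Huh-7, those higher in ES-2 became 40 at a filter of 100 and 100 by the read test. Those higher in Huh-7 became 108 on the deposited scale, 96 after median scaling, 95 with a pseudocount of 10, 285 without a filter, 73 at a filter of 100 and 305 by the read test. Between C643 and ES-2, the calls for C643 and then ES-2 came to 139 and 76 with no filter, 27 and 20 at pseudocount 10, 23 and 14 at a filter of 100, 135 and 66 at 2-fold, 41 and 16 at 8-fold and 184 and 123 by the read test. Between C643 and Huh-7, those higher in C643 became 129 without a filter, 47 at a filter of 100 and 125 by the read test. Those higher in Huh-7 became 100 on the deposited scale, 99 with a pseudocount of 10, 266 without a filter, 73 at a filter of 100 and 279 by the read test. Depth limited ES-2 most, where 1 read is 0.601 RPM.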

Other observations

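Of all miRNAs other than the members, the 3 nearest to miR-143-3p over the 3 libraries, by Euclidean distance of log2(RPM + 1), were miR-27b-5p (distance 1.68), miR-193a-5p (3.12) and miR-181a-2-3p (3.60). miR-27b-5p had 1318 RPM in C643 and 20.4 in ES-2, against 274 in Huh-7. The 3 nearest to miR-199a-3p were let-7d-5p (1.13), miR-98-5p (1.96) and miR-30a-3p (2.02). let-7d-5p had 3590 RPM in C643 and 1996 in ES-2, against 16.6 in Huh-7. These distances describe 3 libraries.

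Few annotated miRNAs lie next to the members. MIR3120 overlaps MIR214 over 81 bases on the opposite strand, and miR-3120-5p and miR-3120-3p had 0 reads in each library. MIR3154 lies 116 bases from MIR199B on the same strand. miR-3154 was read 24 times in C643, 10 times in ES-2 and 0 times in Huh-7, below the 44, 67 and 18 reads of miR-199b-5p. miR-638 and both arms of miR-6793, which are annotated within DNM2, and miR-4748 had 0 reads in each library.

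A few further annotated miRNAs share a seed with a member. miR-4770 and miR-6088, with the seed of miR-143-3p, had 0 reads in each library. miR-3129-5p, with the seed of miR-199-3p, had 44 reads in Huh-7 against 31 of miR-199-3p, so the members gave 41.3% of the reads with this seed there and 100% in C643 and ES-2. miR-3619-5p, with the seed of miR-214-3p, had no read in ES-2 and 52 in C643, against 7 in Huh-7.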
